A study of Mus musculus with 2 samples.

Results

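The Hedgehog pathway genes described here are 9 genes that receive or carry the Hedgehog signal in the responding cell. They were the receptor Ptch1, the coreceptors Gas1, Boc and Cdon, the ligand trap Hhip, the signal transducer Smo and the transcription factors Gli1, Gli2 and Gli3. They were found by their symbols, and all 9 were among the 26082 genes of the deposited tables. RNA was sequenced from primary mouse fibro-adipogenic progenitors (FAPs), mesenchymal cells of skeletal muscle that can become adipocytes. By the labels, one culture had been transfected with plasmids for overexpression of TGFBR3, the type III TGF-β receptor, and the other with the vector. Both libraries carried the genotype label WT and the treatment label adipogenic differentiation, and the induction medium was DMEM with serum, IBMX, dexamethasone and insulin. The cells were sorted from hind-limb muscles, and the methods name C57BL/6 mice aged 6 to 8 weeks, while neither the number of animals nor pooling is stated for these libraries. There was 1 library per condition, so no spread between cultures and no p-value could be obtained, and differences between the cultures and the effect of the plasmid cannot be told apart.

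In the Hedgehog pathway, a secreted ligand binds PTCH1, which otherwise keeps the membrane protein SMO inactive. GAS1, BOC and CDON are surface coreceptors that hold the ligand and present it to PTCH1. Active SMO, in the primary cilium, lets GLI2 and GLI3 act as activators rather than be processed into repressors. Gli1, Ptch1 and Hhip are themselves target genes, so their transcript levels are widely read as a sign of pathway activity. In muscle, FAPs are ciliated cells, and Hedgehog signaling in them is known to restrain adipogenesis.

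Among the members with counts in both libraries, Gas1 had the widest gap between them, and its promoter is therefore shown. The sequence covers chr13:60177536-60177785 on the minus strand (GRCm38.p6, RefSeq), the 250 bases before the annotated start, and it has a GC content of 58.8% with 10 CpG. Capitals mark a GC box (CCGCCC), at position -144 from the start site, and a CCAAT box, at position -68. Positions are from the RefSeq start, which lies 170 bases upstream of the GENCODE start of the gene model used below.
Gas1 promoter: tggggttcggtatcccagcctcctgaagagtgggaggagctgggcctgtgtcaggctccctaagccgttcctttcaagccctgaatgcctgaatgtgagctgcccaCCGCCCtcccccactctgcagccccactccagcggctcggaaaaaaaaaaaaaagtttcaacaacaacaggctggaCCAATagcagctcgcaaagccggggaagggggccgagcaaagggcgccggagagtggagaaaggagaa
Both are common promoter letters. On either strand, GGGCGG was in 35.7% and CCAAT in 37.4% of 32851 windows of 300 bases around RefSeq starts. The letters TATAAA were in 13.6% of them and not in the Gas1 window. The Gli motif GACCACCCA, read on either strand, was in 83 of these windows, or 0.253%. It was in none of the 7 windows that matched a member, those of Ptch1, Smo, Gli2, Gli3, Gas1, Cdon and Hhip. These windows lie at RefSeq starts, and those of Ptch1, Gli3 and Cdon lay wholly inside the gene models used below. That of Cdon was chr9:35451826-35452125, in a gene model that starts at 35421128. The search thus does not cover the start of every gene model. Gli1 and Boc had no window in the table.

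Depth was 62321027 counts for the TGFBR3 overexpression sample, called the OE-labelled library from here on, and 83779203 counts for the vector control. Tgfbr3 itself was at 36.87 FPKM and 35.13 FPKM (16372 and 21245 counts), a log2 ratio of 0.05 (95% interval 0.02 to 0.08). The targeted transcript was thus close to equal in the libraries, and the name of that library states its label and not a measured overexpression. Every direction given here rests on these labels. Whether they were exchanged, or whether the plasmid's transcript escaped the count of the mouse gene, was not tested. Paired values are given with the OE-labelled library first and the control second, unless the sentence names the order. FPKM is a level scaled by gene length and library total. A difference is given as the log2 ratio of CPM (the count scaled to a common library total), OE-labelled over control. Its exact Clopper-Pearson interval at 95% covers counting error only. Over the 17277 genes with at least 20 counts in both libraries together, the median log2 ratio was 0.20 and 63.0% of genes were above 0. A member with a ratio under 0.20 was therefore below the median gene. Low counts fell on multiples of 4 more often than on their neighbours. In the OE-labelled library, 913 genes had 4 counts, 458 had 3 and 323 had 5, while 767 had 1 and 625 had 2. Multiples of 4 held 29.3% of its genes with 1 to 40 counts, so most low counts were not multiples. Intervals in which 4 counts stand for 1 read pair are therefore added where they bear on the reading. Of the 10 FAP markers, all had counts in both libraries, with a summed level of 1666 FPKM against 1764 FPKM. Pdgfra stood at 30.5 FPKM and 32.6 FPKM, and Ly6a, which encodes Sca1, at 1013 FPKM and 706 FPKM. The near-equal sum held opposite differences, since Col1a1 was at 467 FPKM and 870 FPKM (log2 ratio -0.91), while Osr1 was at 24.8 FPKM and 16.2 FPKM. Past 2-fold, 1 FAP marker was higher and 1 lower, where 12.8% and 4.91% of all genes tested were. They were Lum at 0.27 FPKM and 0.03 FPKM (45 and 8 counts) and Pi16 at 0.03 FPKM and 0.08 FPKM (12 and 51 counts). Both were low in both libraries. Other cell types were low in both: 1.65 FPKM and 1.30 FPKM summed for the 5 myogenic markers analysed, 0.73 FPKM and 0.47 FPKM for leukocytes, and 2.17 FPKM and 2.03 FPKM for endothelium. The endothelial sum also held opposite differences. Of the 5 endothelial markers tested, 2 were lower and 3 at least 2-fold higher, where 12.8% of all genes tested were. Among the 3 was Kdr at 0.43 FPKM and 0.08 FPKM, from 262 and 65 counts. Mural cell markers summed to 8.87 FPKM and 7.83 FPKM, and Schwann cell markers to 2.1 FPKM and 3.86 FPKM. The leukocyte genes Adgre1 and Tyrobp had no counts, Ptprc (CD45) had 0 and 4 counts, and Pecam1 (CD31) had 24 and 8.

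All 9 members passed the filter of 20 counts. Of these, 1 was at least 2-fold higher in the OE-labelled library, where 12.8% of all genes tested were. In the other direction, 1 was at least 2-fold lower, where 4.91% of all genes tested were. The counting interval lay above no change for 3 members (49.5% of all genes) and below it for 3 (25.7% of all genes). With 4 counts taken as 1 read pair, these became 2 and 2. The members' median log2 ratio was -0.01, below the 0.20 of all genes. The 9 genes thus did not move together. The 1 past 2-fold lower was Gas1, a well-detected gene, and the 1 past 2-fold higher was Hhip, at the limit of detection. Counts of 1 among 9 genes cannot be told from the shares of all genes.

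**Figure D1:**
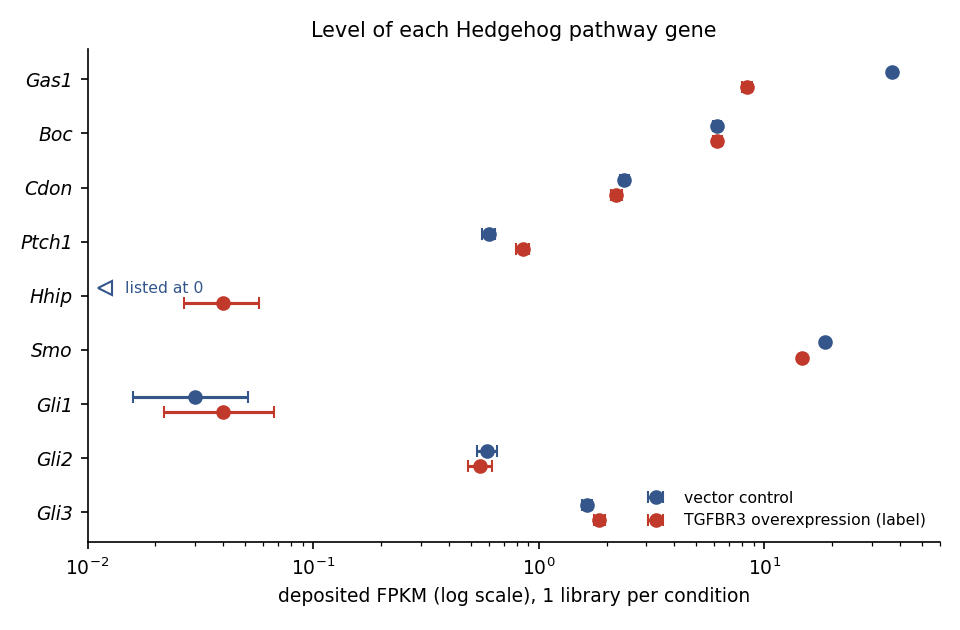
Level of each of the 9 Hedgehog pathway genes in the vector control library (blue) and in the OE-labelled library (red), as deposited FPKM on a log axis, with bars for the 95% Poisson counting interval. Gas1 is the highest gene in the control at 36.75 FPKM and lies at 8.39 FPKM in the other library, while Hhip is listed at 0 in the control.

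The levels set the order of the genes. In the control, Gas1 was highest at 36.75 FPKM, ahead of Smo at 18.57 FPKM, Boc at 6.16 FPKM, Cdon at 2.40 FPKM and Gli3 at 1.64 FPKM. Ptch1 at 0.60 FPKM and Gli2 at 0.59 FPKM followed. Their Poisson counting intervals, 0.56 to 0.64 and 0.53 to 0.65, overlapped, so they could not be ordered. Gli1 was listed at 0.03 FPKM and Hhip at 0. In the OE-labelled library, Smo came first at 14.73 FPKM and Gas1 second at 8.39 FPKM, with Boc at 6.20 FPKM behind it. Ptch1 at 0.85 FPKM stood above Gli2 at 0.55 FPKM, with counting intervals of 0.79 to 0.91 and 0.48 to 0.62 that did not overlap. Cdon at 2.21 FPKM and Gli3 at 1.86 FPKM kept apart on the counts as deposited, but not with 4 counts as 1 read pair (1.96 to 2.48 against 1.66 to 2.08). Hhip and Gli1 were both listed at 0.04 FPKM. The exchange of places between Gas1 and Smo was the main difference in this order.

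Gas1 encodes a surface protein held by a glycolipid anchor, first known as a growth arrest gene. It had 1687 counts in the OE-labelled library and 10054 in the control, or 8.39 FPKM and 36.75 FPKM. The log2 ratio was -2.15 (95% interval -2.22 to -2.07), a level 4.43-fold lower than in the control. With 4 counts as 1 read pair, the interval was -2.30 to -1.999. Of the 17277 genes tested, 230 (1.33%) had a lower ratio. Of the 11198 with a mean of at least 1 FPKM, 216 (1.93%) were at least 2-fold lower and 25 lay below Gas1. It was the 1335th highest gene by FPKM in the control and the 4960th in the other library.

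Technical properties of the Gas1 transcript were set beside this value. The gene lies at chr13:60174405-60177365 on the minus strand (mm10) and has a single exon block of 2961 bases with a GC content of 58.4%. None of its 31-base words, read on its own strand, occurs in transcripts of another gene. Reverse complements were not searched, so sequence shared with an antisense transcript would be missed. Over all genes, the log2 ratio was lower at higher GC content, with bin medians of 0.62 at the lowest and -0.27 at the highest of 20 GC bins. With this trend removed Gas1 stood at -2.04, and with the trend over exon length removed at -2.25. The antisense lincRNA Gm48488 overlaps Gas1 on the plus strand and had 49 and 197 counts, a log2 ratio of -1.58 (-2.06 to -1.12). Whether the counting used strand is not stated, so reads of the pair cannot be assigned with certainty. The counts assigned to Gm48488 were few next to those of Gas1, and whether the overlap bears on the Gas1 value was not tested.

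Several markers of tenocytes and adipocytes were lower in the same library. Of the 4 tenocyte markers, 3 were at least 2-fold lower, where 4.91% of all genes tested were. Their summed level was 31.5 FPKM against 94.1 FPKM, most of it Thbs4 at 28.55 FPKM and 89.98 FPKM. Scx, the defining tenocyte factor, was at 0.74 FPKM and 2.04 FPKM, and Tnmd had 4 and 19 counts. The Tnmd interval included no change when 4 counts stood for 1 read pair (-7.40 to 1.38). Mkx, another tendon factor, was within 2-fold at 2.15 FPKM and 1.92 FPKM. Of the 7 adipocyte markers, 3 were at least 2-fold lower, beside the same 4.91% of all genes, with a summed level of 47.8 FPKM against 86.4 FPKM. The highest of them was Cfd at 15.33 FPKM and 39.04 FPKM, and the lowest Cidec at 0.49 FPKM and 1.23 FPKM. Pparg, the adipogenic factor, was not lower, at 2.19 FPKM and 1.61 FPKM (log2 ratio 0.42, 0.23 to 0.61), and Fabp4 was at 12.6 FPKM and 13.94 FPKM. The part of these cell states in the Gas1 result was not tested. In bulk RNA, fewer cells that express a gene and less RNA per cell cannot be told apart.

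The other coreceptors differed far less. Boc, an immunoglobulin-superfamily receptor at chr16:44485049-44558897, had 1872 and 2535 counts, or 6.20 FPKM and 6.16 FPKM. Its log2 ratio was -0.01 (-0.10 to 0.08), so no difference was detectable on this scale. Relative to the median gene Boc stood at -0.21, and at 0.02 with the GC trend removed, so its direction depended on the scaling. Cdon, its close relative at chr9:35421128-35507652, had 1159 and 1712 counts, or 2.21 FPKM and 2.40 FPKM. Its log2 ratio was -0.14 (-0.24 to -0.03), and with 4 counts as 1 read pair the interval included no change (-0.36 to 0.08). The interval of Gas1 lay wholly below those of Boc and Cdon under both readings of the counts. Summed over the 3 coreceptors, the level was 45.31 FPKM in the control and 16.8 FPKM in the other library, a gap of 28.51 FPKM. Gas1 supplied 28.36 FPKM of that gap.

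**Figure D2:**
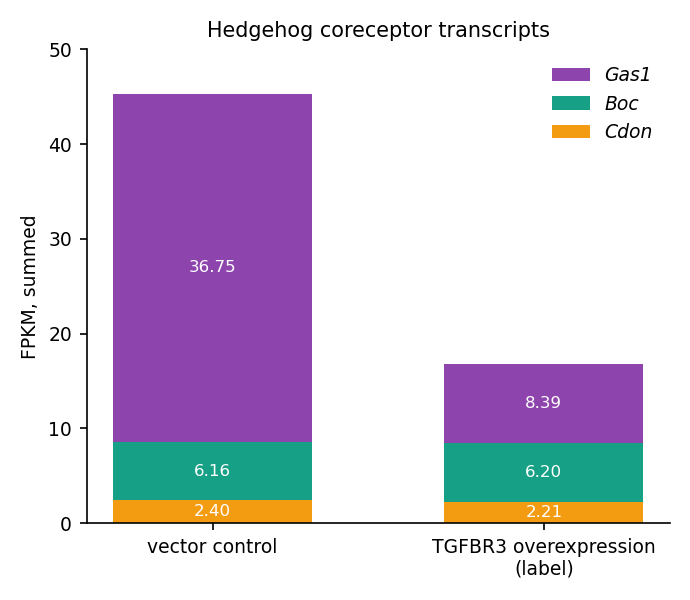
Stacked FPKM of the 3 Hedgehog coreceptors in each library, 1 library per condition. Gas1 (purple) accounts for nearly all of the difference in total height, while the Boc (green) and Cdon (orange) segments are of similar size in both bars.

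The make-up of the coreceptor pool differed accordingly. Gas1 was 81.1% of the summed coreceptor FPKM in the control and 49.9% in the OE-labelled library. Boc was 13.6% and 36.9%, and Cdon was 5.30% and 13.2%. The ratio of Gas1 to Boc was 5.97 in the control and 1.35 in the other library, and that of Gas1 to Cdon was 15.3 and 3.80. Such ratios within a library do not depend on how the libraries were scaled to each other. Gas1 remained the most abundant of the 3 in both libraries.

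Ptch1, the ligand receptor and a target gene of the pathway, had nearly equal counts of 821 and 792 from libraries of unequal depth. Its levels were 0.85 FPKM and 0.60 FPKM. The log2 ratio was 0.48 (0.34 to 0.62), and 0.19 to 0.77 with 4 counts as 1 read pair. This difference depended on the scale. It was 0.27 relative to the median gene, 0.15 with the GC trend removed and 0.00 with the trend over exon length removed. Ptch1 lies at chr13:63508328-63573598 and, with 14185 bases of exon, is the longest of the 9 transcripts. With the length trend removed, Ptch1 thus did not differ from genes of like length, while it was higher on the other scales given here. Whether length accounts for the difference was not tested.

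Hhip, at chr8:79965851-80058006, encodes a membrane protein that binds Hedgehog ligands and limits their reach, and it is also a target gene. It had 29 counts in the OE-labelled library and 0 in the control, so it is listed at 0.04 FPKM and 0. Against a floor of 3 counts in the control, its log2 ratio was 3.70, and the lower end of its counting interval was 3.31. With 4 counts as 1 read pair these were 1.70 and 1.02. On log2 of FPKM plus 1 the difference was 0.06, since both levels are close to 0. Counts of this kind were not rare. Of 1500 genes with 20 to 40 counts in the OE-labelled library, 100 (6.67%) had 0 in the control. In the other direction it was 74 of 1393 (5.31%). The Hhip difference thus rests on few reads.

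Smo, the transmembrane protein that passes the signal into the cell, lies at chr6:29735503-29761365. It had 5618 and 9647 counts, or 14.73 FPKM and 18.57 FPKM. Its log2 ratio was -0.35 (-0.40 to -0.31), and it stayed below 0 with the GC trend removed (-0.26) and with the length trend removed (-0.62). A share of 2.88% of its 31-base words, read on its own strand, occurs in other transcripts. Smo was thus modestly lower, 1.28-fold, and well within 2-fold. The ratio of Smo to Ptch1 was 30.95 in the control and 17.3 in the other library.

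**Figure D3:**
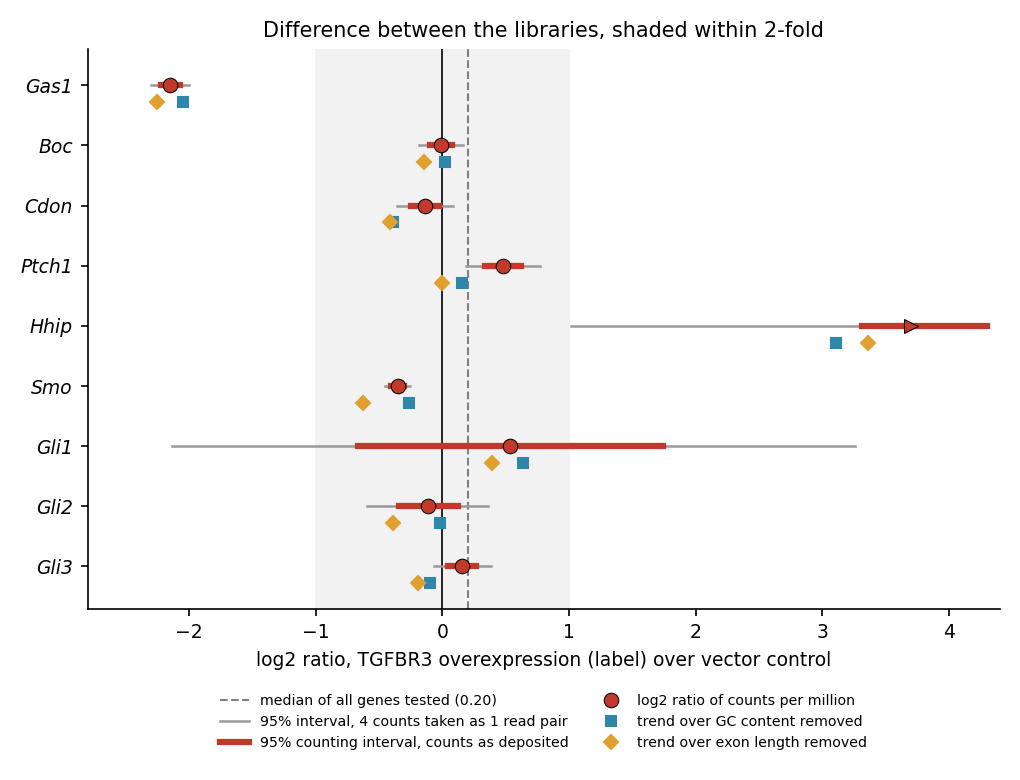
Log2 ratio of CPM for each member (red circles, with a triangle for Hhip, set against the floor of 3 counts), with counting intervals on the deposited counts (thick) and with 4 counts as 1 read pair (thin), those of Hhip having no upper end. Squares and diamonds show the ratio with the trend over GC content or exon length removed, the gray band is within 2-fold, and the dashed line is the median of all genes tested, 0.20; Gas1 lies left of the band on every scale drawn.

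Of the Gli transcription factors, Gli3 was the most abundant. Gli3, the main source of the pathway's repressor, lies at chr13:15463235-15730026 and had 1210 and 1458 counts, or 1.86 FPKM and 1.64 FPKM. Its log2 ratio of 0.16 (0.05 to 0.27) was above 0 but below the median gene, at -0.05 after centring, and the interval with 4 counts as 1 read pair was -0.07 to 0.38. The direction of Gli3 thus depended on the scaling. Gli2, the main activator, lies at chr1:118834132-119053619 and had 257 and 373 counts, or 0.55 FPKM and 0.59 FPKM. Its log2 ratio was -0.11 (-0.35 to 0.12), so no difference was detectable on this scale. Relative to the median gene Gli2 stood at -0.31, and at -0.02 with the GC trend removed.

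Gli1, an activator that depends on the signal for its own transcription, lies at chr10:127329882-127341974. It had 14 counts in the OE-labelled library and 13 in the control, or 0.04 FPKM and 0.03 FPKM. The log2 ratio of 0.53 had an interval of -0.66 to 1.74, and of -2.13 to 3.26 with 4 counts as 1 read pair. Gli1 was near the limit of detection in both libraries, and neither a rise nor a drop of 1.5-fold could be told from no change. Its gene overlaps Arhgap9 on the other strand, which had 0 and 15 counts. Gli3 made up 75.9% of the summed Gli FPKM in the OE-labelled library and 72.6% in the control. The sum was 2.45 FPKM and 2.26 FPKM, and the ratio of Gli3 to Gli2 was 3.38 and 2.78. The Gli pool was thus of like size and make-up in both libraries.

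**Figure D4:**
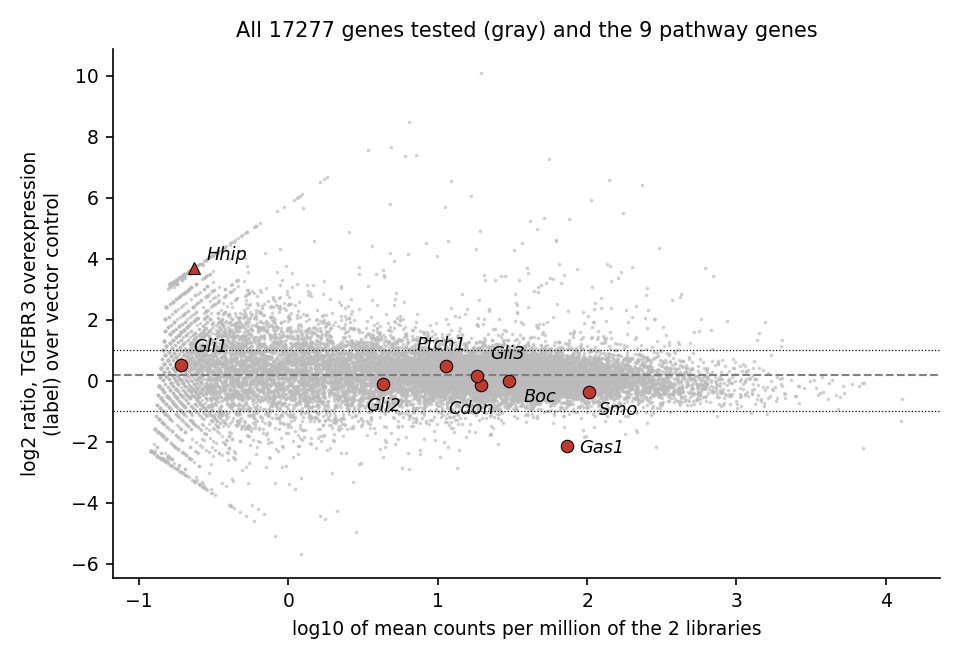
Log2 ratio of CPM against the log10 of the mean CPM for all 17277 genes tested (gray), with the 9 members in red. Dotted lines mark 2-fold and the dashed line the median of 0.20; Gas1 lies below the cloud at its level, the triangle for Hhip lies on the line of genes without counts in the control, and the other 7 members lie inside the 2-fold lines.

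The ligand genes themselves were near the limit of detection. Dhh, a ligand, had 20 and 30 counts, or 0.06 FPKM and 0.07 FPKM. Ihh had 6 counts and 0, below the filter, and Shh was not analysed here. Of the 7 ligand and release genes tested, 4 were higher and 3 lower, with a median log2 ratio of 0.28 against 0.20 for all genes. Over all genes tested, 63.0% were higher. The 3 most abundant of the list were Disp1, which releases the ligand from the cell, at 6.67 FPKM and 5.42 FPKM, Hhat, and Disp2 at 0.34 FPKM and 0.25 FPKM. Hhat, which attaches palmitate to the ligands, was at 0.73 FPKM and 1.64 FPKM, from 457 and 1390 counts. Its log2 ratio was -1.18 (-1.33 to -1.02), and -1.50 with the GC trend removed. Scube3, a secreted protein of the family that helps ligand release, was just past 2-fold higher on 39 and 25 counts, with an interval of 0.31 to 1.85. The Scube3 interval included no change when 4 counts stood for 1 read pair (-0.53 to 2.79). Hhat was the only gene of this list past 2-fold on more than 200 counts. Past 2-fold higher was 1 of the list and past 2-fold lower 1, where 12.8% and 4.91% of all genes tested were.

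Of the 5 genes for other surface proteins, 4 were higher and 1 lower, where 63.0% of all genes tested were higher. Their median log2 ratio was 0.03, and 1 of the 5 lay above the median gene. Past 2-fold higher was 1, where 12.8% of all genes tested were. Gpr161, a ciliary receptor that opposes the pathway, was at 2.88 FPKM and 2.82 FPKM. Its log2 ratio was 0.01 (-0.09 to 0.12), and -0.19 relative to the median gene. The calcium pump gene Atp2a2 was at 53.6 FPKM and 50.65 FPKM. Lrp2, an endocytic receptor, was past 2-fold higher on 22 and 12 counts, with an interval of 0.22 to 2.45 that included no change when 4 counts stood for 1 read pair.

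Of the 25 genes of signal transduction and Gli processing, 15 were higher and 10 lower, where 63.0% of all genes tested were higher. Their median was 0.07 against 0.20 for all genes. Of the 25, 9 lay above the median gene. The most abundant were the protein kinase A genes Prkar1a (97.09 FPKM and 92.56 FPKM) and Prkaca (54.02 FPKM and 64.57 FPKM) and the ubiquitin ligase adaptor Spop (43.25 FPKM and 40.57 FPKM). Sufu, which holds Gli proteins in the cytoplasm, was at 4.59 FPKM and 5.37 FPKM, and Kif7, a ciliary kinesin of the pathway, at 1.60 FPKM and 2.00 FPKM. These pathway brakes differed by less than 1.5-fold. Efcab7, which anchors the EVC complex in the cilium, was the only one past 2-fold, at 0.79 FPKM and 0.27 FPKM from 122 and 59 counts. Its log2 ratio was 1.47 (1.02 to 1.95) and 0.88 with the GC trend removed, inside 2-fold. Over all genes tested, 12.8% were past 2-fold higher and 4.91% past 2-fold lower.

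Among 17 target genes tested, 11 were higher and 6 lower, where 63.0% of all genes tested were higher. Their median was 0.09, below that of all genes. The list holds genes reported as Hedgehog targets in mesenchymal cells, and many of them answer to other signals too. Bmp4, a secreted growth factor, was higher at 0.25 FPKM and 0.07 FPKM from 40 and 14 counts, a log2 ratio of 1.94 (1.03 to 2.93). Cntfr, a cytokine receptor, was at 0.59 FPKM and 1.18 FPKM from 113 and 305 counts, a log2 ratio of -1.01 (-1.33 to -0.69). It was -0.73 with the GC trend removed. Bmp4 and Cntfr were the 2 past 2-fold, in opposite directions. Past 2-fold higher were 12.8% of all genes tested, and past 2-fold lower 4.91%. The 3 most abundant targets were within 2-fold. Ccnd2, a cyclin, was at 58.04 FPKM and 34.87 FPKM (log2 ratio 0.72). Timp3, a protease inhibitor, was at 36.93 FPKM and 34.17 FPKM (0.09), and Sfrp1, a Wnt antagonist, at 29.82 FPKM and 31.85 FPKM (-0.11). Hsd17b6 was not analysed here, and Mycn, with 0 and 12 counts, was below the filter.

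The primary cilium is the organelle in which SMO and the GLI proteins meet. All 50 cilium genes were tested, of which 36 were higher and 14 lower, where 63.0% of all genes tested were higher. The median log2 ratio was 0.24 against 0.20 for all genes. Relative to the median gene, the list's median was 0.04. Ift81, a subunit of the intraflagellar transport complex that binds tubulin, was the only one past 2-fold. It was at 2.24 FPKM and 0.76 FPKM from 894 and 414 counts, a log2 ratio of 1.54 (1.37 to 1.71), and 1.08 with the GC trend removed. Its partner in tubulin binding, Ift74, was also higher at 4.02 FPKM and 2.23 FPKM (0.83). The 3 most abundant were Ift20 at 20.02 FPKM and 31.77 FPKM, Arl3 at 11.19 FPKM and 15.55 FPKM, and the kinesin gene Kif3b at 14.34 FPKM and 10.67 FPKM. Cilium genes thus lay on both sides of the median gene, with 26 of 50 above it. Of all genes tested, 12.8% were past 2-fold higher and 4.91% past 2-fold lower, against 1 and 0 of the 50.

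**Figure D5:**
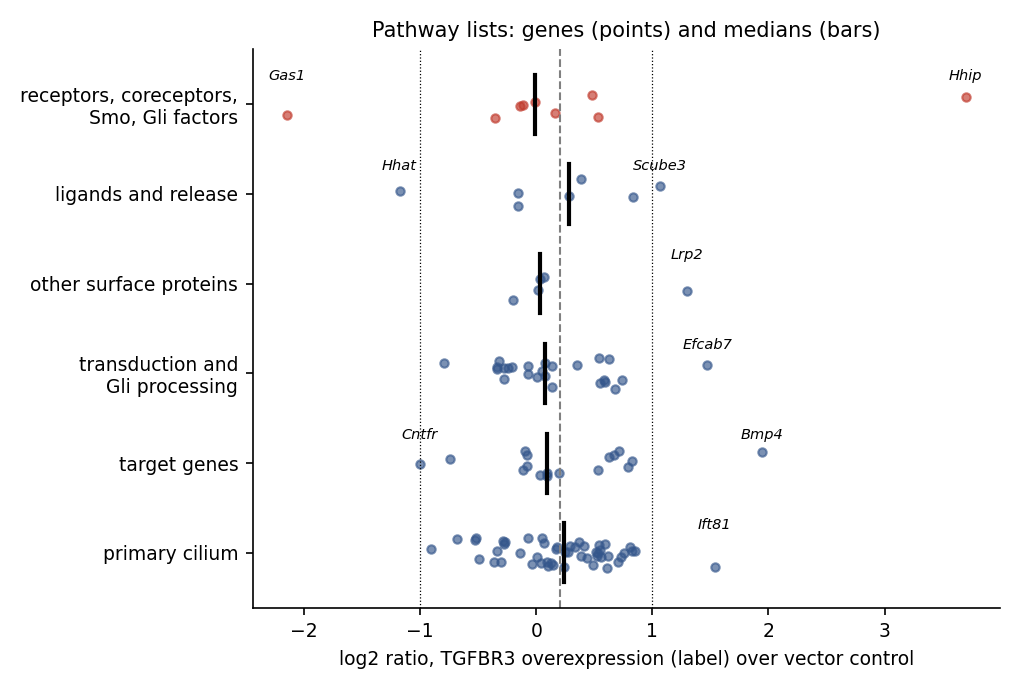
Log2 ratio of each gene tested in the 9 members (red) and in the lists of ligands and release genes, other surface proteins, transduction genes, target genes and cilium genes (blue). Thick bars are list medians, dotted lines mark 2-fold and the dashed line the median of all genes, 0.20; list medians lie between -0.01 and 0.28, and the genes past 2-fold are named.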

How the data were processed

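Per the labels, poly(A) RNA was made into dUTP-marked libraries and sequenced as paired reads of 150 nt on a NovaSeq instrument. The authors deposited, for each gene and library, a raw count and an FPKM value rounded to 2 decimals. The paper's methods name STAR and FeatureCounts on mm10. The submitters' processing notes name cutadapt 1.9, HISAT2 2.2.1 and StringTie 2.1.6, also with mm10, and DESeq2 and edgeR without versions. Which chain made the tables, whether 1 count is 1 read, the strand setting and the annotation release are not given in the sources used here. The steps of 4 in low counts bear on this, and their cause was not tested.

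Libraries were grouped by their titles. The log2 ratio of CPM (counts scaled to a common total) was computed in Python 3.11.15 with scipy 1.17.1, genes being tested with at least 20 counts over both libraries. A library with 3 counts or fewer was set to a floor of 3. Intervals and floors cover counting error only. They treat counts as independent molecules, which was not tested. Past 2-fold means a log2 ratio of 1 or more, or of -1 or less. With 1 library per group, no test was run. Exon length, GC content, overlaps and coordinates came from GENCODE M21 on mm10, and promoter windows from RefSeq on GRCm38.p6, which matched 7 of 9 members. GC content was known for 99.9% of the genes tested. Trends were removed as medians in 20 bins. TMM factors (edgeR 4.0.16) and size factors (DESeq2 1.42.0, in R 4.3.3) served as alternative scalings, and other alternatives were FPKM with a pseudocount of 1 or 0.1, centring, a 1.5-fold threshold and other count filters. Dividing counts by 4 was added after seeing the data. The code was checked on simulated counts that were independent by construction, so this says nothing on whether the real counts were.

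The members and gene lists were chosen with earlier results of these data known. Named are all 9 members, Tgfbr3, every gene of each other pathway list past 2-fold, and the 3 of each with the highest mean FPKM. Of the marker lists, the highest and lowest genes and those the label check turns on could be named. A gene that the rule also names is not reported here. Sufu, Kif7, Dhh, Ihh, Ift74, Mycn, Scx, Mkx, Pparg, Fabp4, Col1a1, Osr1, Lum, Kdr, Arhgap9 and Gm48488 were named after their values were seen.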

Additional observations from a re-analysis of the deposited data

How the results depend on the processing

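No paired analysis was possible because there was 1 library per group, and for the same reason no library could be left out. Of the alternative values computed, 138 stayed close to the value reported and 111 moved. Close meant within the counting interval for a member's ratio and within 1.5 times for a number of genes. For a list median it meant within the standard error of the list's ratios. Dividing counts by 4 leaves ratios above the floor unchanged by construction, so those values add no support. Neither Gas1 nor Hhip, the members past 2-fold, turned its direction. Ptch1 (0.48 as reported) ranged down to 0.00 and Gli3 (0.16) from -0.19 to 0.17. Boc (-0.01) ranged from -0.23 to 0.02. Gas1 was past 2-fold lower under every alternative, at -2.01 with FPKM plus 1, -2.34 with TMM factors, -2.35 with size factors, -2.35 when centred on the median gene, -2.04 with the GC trend, -2.25 with the length trend and -2.26 with the expression trend removed. TMM factors shifted all genes by -0.19, and size factors or centring by -0.20. Of genes past 2-fold, 72.3% were higher, and 57.2% after centring. Members above 0 went from 4 to 2 with the length trend removed and to 2 with counts divided by 4, where Gli1 and Hhip were below the filter of 20 counts and the ratios of all 4 stayed above 0 (Ptch1 0.48, Gli1 0.53, Gli3 0.16 and Hhip 1.70).

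All genes at least 2-fold higher and lower numbered 2216 and 849 as reported, 362 and 124 with FPKM plus 1, 1383 and 449 with FPKM plus 0.1, 1392 and 1396 with the expression trend removed, 885 and 290 with at least 200 counts, and 1260 and 425 with counts divided by 4. At 1.5-fold they numbered 4726 and 1824. Members at least 2-fold higher went from 1 to 0 with FPKM plus 1, FPKM plus 0.1 and counts divided by 4, since Hhip rests on 29 counts.

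Past 2-fold in either direction were 2 ligand genes, 1 other surface gene, 1 transduction gene, 2 targets and 1 cilium gene. With FPKM plus 1, 0 genes of any of these lists were. Ligand genes numbered 1 under FPKM plus 0.1, TMM factors, size factors, centring, removal of the length or expression trend, at least 200 counts and counts divided by 4. Other surface genes numbered 0 under FPKM plus 0.1, removal of the length or expression trend, at least 200 counts and counts divided by 4. Transduction genes numbered 0 with the GC trend removed or at least 200 counts, 2 with the length trend removed and 6 at 1.5-fold. Target genes numbered 1 under FPKM plus 0.1, GC removal, at least 200 counts and counts divided by 4, and 8 at 1.5-fold. Cilium genes numbered 2 under TMM factors, size factors, centring and removal of the length or expression trend, and 12 at 1.5-fold. For genes with few counts, such as Gli1 and Hhip, depth limits what can be seen.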
